A study of Mus musculus with 4 samples.

Results

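Ins1, Ins2 and Iapp, the genes of the mouse insulins and of islet amyloid polypeptide (amylin), were followed in beta cells sorted on CD63. They were taken by symbol and are 3 of the 31017 gene names counted, and all 3 were among the 13241 genes tested. RNA-seq had been made from islets of 10-week-old wild type C57BL/6J male mice, cultured overnight, dissociated and sorted into CD63 high and CD63 low cells, with 2 libraries in each group. All groups share genotype, sex, age and culture, and no treatment is named. CD63 is a tetraspanin of late endosomes, lysosomes and secretory vesicles, and the labels name no gate other than CD63. Whether the replicates are separate animals or separate sorts is not stated, so that the p-values below measure only the spread between libraries, which may be technical.

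Total counts lay between 29249270 and 35003307 per library. The transcript of the sorting marker, Cd63, was at 1973 and 2076 CPM (counts scaled to a common library total, which TMM corrects for a few very abundant genes) in CD63 high cells, against 1186 and 1120 CPM in CD63 low cells, which checks the groups and is no finding. Beta cell markers other than the 3 genes (Slc2a2, Mafa, Pdx1, Nkx6-1, Ucn3, G6pc2 and Slc30a8) were present in every library. Of these, 3 of 7 were called lower in CD63 high cells (Slc2a2, Mafa and Slc30a8) and none higher. Over all tested genes 0.287% were called lower and 2.50% higher. The 7 markers summed to 2188 and 2357 CPM (CD63 high) and to 2764 and 3333 CPM (CD63 low) on library size alone. In bulk RNA, fewer cells of a type and less RNA per cell cannot be told apart.

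Insulin lowers blood glucose by driving its uptake into muscle and fat. Mice carry a pair of insulin genes: Ins2, which keeps the ancestral exon structure, and Ins1, a copy that arose by retroposition of a partly processed Ins2 transcript. Both preproinsulins are folded in the endoplasmic reticulum (ER), packed into granules and cut by prohormone convertases into insulin and C-peptide. Iapp encodes amylin, a peptide of the calcitonin family that is cut by the same convertases, stored in the same granules and released with insulin, and that slows gastric emptying and limits food intake. Pdx1, Mafa and Neurod1 are the best known activators of insulin gene transcription.

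The coding sequences of Ins1 and Ins2 are alike enough that reads can in principle fit either gene, so the letters behind the counts are shown first. Over the GENCODE coding sequences of the main transcripts of Ins1 (327 bases) and Ins2 (333 bases), 302 of 327 aligned positions were identical (92.4%), and Ins2 held 6 bases that Ins1 lacks. The stretch around those 6 bases, in the C-peptide coding part, is printed with capitals at every base that differs from the other gene or is absent from it. Ins1 is shown from coding base 161 to 280 and Ins2 from 161 to 286, counted from the A of the start codon.
Ins1: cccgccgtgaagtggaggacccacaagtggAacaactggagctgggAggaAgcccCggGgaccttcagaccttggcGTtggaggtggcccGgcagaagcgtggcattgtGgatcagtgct
Ins2: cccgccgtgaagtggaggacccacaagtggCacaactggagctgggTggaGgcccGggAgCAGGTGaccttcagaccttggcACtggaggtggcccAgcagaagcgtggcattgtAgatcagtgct
Differences are scattered rather than grouped, so that long identical runs are rare. Of the 25-base windows of the Ins1 mRNA, 65 of 1038 (6.26%) also occur in an Ins2 transcript, of the 50-base windows 7 of 1013 (0.691%), and of the 75-base and 100-base windows none of 988 and 963. Seen from the main Ins2 transcript, 65 of 454 windows of 25 bases (14.3%) and 7 of 429 of 50 bases (1.63%) also occur in Ins1. A read of 75 unbroken bases of mRNA therefore has a place in only 1 of these 2 genes, as far as exact matches go. Pairs of shorter reads with unread bases between them were not examined. The sources used here give no read length.

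In the deposited tables Ins1 spans chr19:52264323-52265456 (mm10, plus strand) in 2 exons of 1016 bases together. Ins2 spans chr7:142678656-142743381 (minus strand) with 6 merged exon blocks of 1312 bases, because the annotation includes 4 upstream exons of 578 bases between chr7:142699435 and 142743381 that belong to longer transcripts. Iapp spans chr6:142298423-142303961 (plus strand) with 3 merged blocks of 974 bases. It lies within the span of Slco1a5, an organic anion transporter gene on the opposite strand, and these libraries carry no strand information. The exons of both genes share no base in this annotation, and Slco1a5 held 53 to 85 counts per library, against 1649404 to 1839495 for Iapp.

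Upstream sequence is shown for Ins1 and Iapp because the activators that bind such elements were also measured. Both windows come from the RefSeq promoter table (GRCm38.p6, the assembly behind mm10), hold the 250 bases before the annotated start, and were found for 2 of the 3 genes, Ins2 having no entry. Capitals mark matches, on either strand, to TAAT (the core of the A boxes bound by homeodomain factors such as Pdx1), CATCTG (the E box bound by Neurod1 with its partners), a Maf response pattern, TGACG (a core of the cyclic AMP response element), CCAAT and TATAAA.
Ins1, chr19:52264047-52264296: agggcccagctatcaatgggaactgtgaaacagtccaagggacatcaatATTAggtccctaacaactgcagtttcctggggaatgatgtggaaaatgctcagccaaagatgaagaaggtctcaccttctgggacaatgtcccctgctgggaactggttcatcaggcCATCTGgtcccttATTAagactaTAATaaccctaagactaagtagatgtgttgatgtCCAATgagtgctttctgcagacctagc
Iapp, chr6:142298175-142298424: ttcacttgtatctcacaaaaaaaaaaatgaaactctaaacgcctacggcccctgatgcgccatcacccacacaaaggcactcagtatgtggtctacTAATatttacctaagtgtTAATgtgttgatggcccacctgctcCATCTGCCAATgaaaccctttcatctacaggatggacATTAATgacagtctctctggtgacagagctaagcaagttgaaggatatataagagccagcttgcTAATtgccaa
With the 50 bases after the start included, the Ins1 window held 3 TAAT matches and the Iapp window 5, of which a pair on opposite strands overlaps from -74 to -69. Ins1 held 2 CATCTG matches and Iapp 1, and in Iapp the CATCTG at -111 runs directly into a CCAAT at -105. The only Maf response match stood in Ins1 from 22 to 32 bases after the RefSeq start, with the second E box from 43 to 48:
Ins1, chr19:52264318-52264344: TGCAGCTTCAGcccctctggcCATCTG
The first Ins1 exon of the deposited tables begins at 52264323 and the RefSeq transcript at 52264297, so the distance of these matches from the start depends on the annotation. Which start these cells use was not tested, so these matches may lie before the start in use. Among the 32851 promoters of the table, 58.0% held TAAT, 17.2% CATCTG, 4.44% the Maf response pattern, 37.4% CCAAT, 20.8% TGACG and 13.6% TATAAA in the same 300-base window. TGACG and TATAAA had no match in either window.

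Ins2, Ins1 and Iapp were, in this order, the 3 most abundant transcripts of every library. Their summed share of all counts was 54.9% and 58.5% (CD63 high) against 61.9% and 53.4% (CD63 low). The next gene was far below: Iapp had 11.5 and 11.7 times the counts of Gcg, the next gene of both CD63 high libraries, and 8.54 and 5.03 times those of Chga (chromogranin A), the next gene of both CD63 low libraries. None of the 3 genes differed between CD63 high and CD63 low cells beyond the spread between libraries.

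For orientation, the quasi-likelihood test of edgeR, adjusted by Benjamini-Hochberg over all genes, called 2.79% of the tested genes (369 of 13241; 769 without CD63 low replicate 1), 2.50% higher and 0.287% lower in CD63 high cells. In 46.0% of the tested genes the TMM-scaled CPM of the groups showed no overlap. None of the 3 hormone genes was in either class, which is 0 of 3 beside those shares.

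Ins2 stood at 354763 and 416655 TMM-scaled CPM in CD63 high replicates 1 and 2 and at 468425 and 335755 CPM in CD63 low replicates 1 and 2. The CD63 low libraries were the highest and the lowest of the 4, so the CD63 high values lay between them. Its means were 385709 ± 43764 and 402090 ± 93812 CPM (SD, n = 2 libraries per group). The log2 fold change, CD63 high over CD63 low, was -0.06 (SE 0.23, 95% interval -0.57 to 0.45; edgeR adjusted p 0.946). This interval leaves room for Ins2 levels in CD63 high cells from 0.673 to 1.37 times those in CD63 low cells.

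Ins1 stood at 121231 and 134999 CPM (CD63 high) against 143398 and 101912 CPM (CD63 low). As for Ins2, the CD63 low libraries enclosed the CD63 high ones. The log2 fold change was 0.06 (SE 0.23, 95% interval -0.44 to 0.56; edgeR adjusted p 0.942).

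Iapp stood at 57251 and 65879 CPM (CD63 high) against 60603 and 42331 CPM (CD63 low). Here CD63 low replicate 2 was below the other 3 libraries, and CD63 low replicate 1 lay between the CD63 high values. The log2 fold change was 0.26 (SE 0.23, 95% interval -0.25 to 0.76; edgeR adjusted p 0.681), a point estimate of 1.20-fold. As a share of all counts, without TMM scaling, Iapp took 5.90% and 6.24% (CD63 high) against 5.58% and 4.71% (CD63 low), and on this scale the groups did not overlap.

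The absolute log2 fold change was above that of Ins1 in 11718, above that of Ins2 in 11778 and above that of Iapp in 7404 of the 13241 genes, against a median of 0.30 over all genes. Replicates differed in the same order for the 3 genes: the log2 gap between the CD63 low libraries was 0.49 for Ins1, 0.48 for Ins2 and 0.52 for Iapp, and between the CD63 high libraries 0.16, 0.23 and 0.20.

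**Figure D1:**
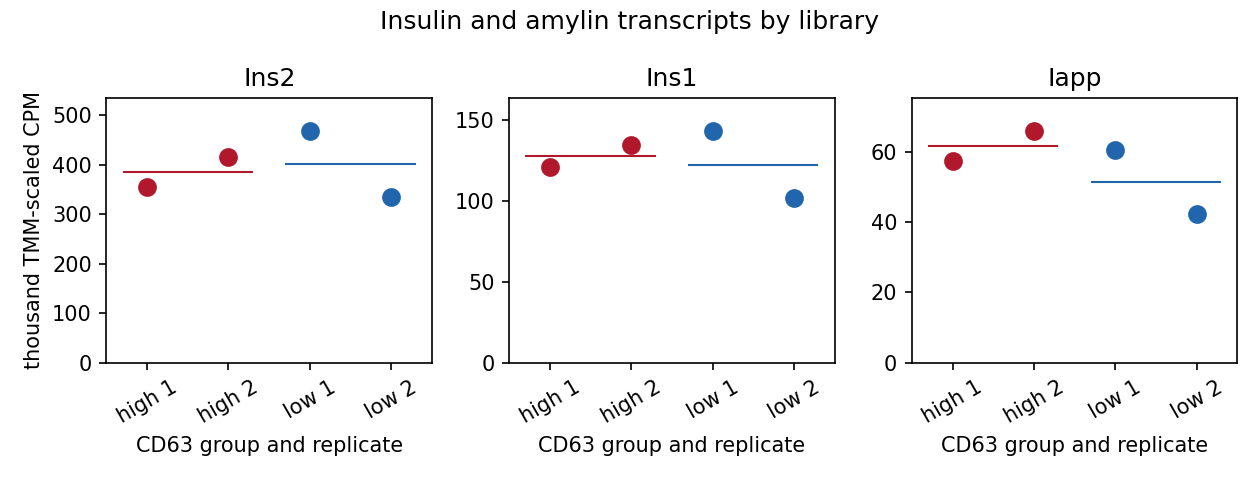
TMM-scaled CPM (axis in units of 1000) of Ins2, Ins1 and Iapp in each of the 4 libraries (points) with the group means (lines). For each gene the 2 CD63 low libraries lie farther apart than the 2 CD63 high libraries, and the groups overlap.

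Ratios between the genes need no scaling between libraries, since both counts come from the same library. In these ratios the replicates lay close together and the groups apart. Iapp counts per 100 insulin counts (Ins1 plus Ins2) were 12.0 and 11.9 for CD63 high replicates 1 and 2 and 9.91 and 9.67 for CD63 low replicates 1 and 2. Both CD63 high values exceeded both CD63 low values, and the group means were 12.0 ± 0.0605 and 9.79 ± 0.165 (SD, n = 2). CD63 high cells thus had 1.22 times the Iapp counts per insulin count (log2 difference 0.29), which was 16.3 times the pooled SD of the log2 ratio (0.018). Against Ins2 alone Iapp was 1.25 times and against Ins1 alone 1.15 times as high in CD63 high cells.

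Ins2 counts per Ins1 count came to 2.93 and 3.09 (CD63 high) against 3.27 and 3.29 (CD63 low). The groups again did not overlap, with means of 3.01 ± 0.113 and 3.28 ± 0.0198 (SD, n = 2), so that the ratio in CD63 high cells was 0.916 times that in CD63 low cells (log2 difference -0.13, pooled SD 0.039). The gap between CD63 high replicate 2 and CD63 low replicate 1, the nearest values of the 2 groups, was 0.082 on the log2 scale, and that between the CD63 high replicates 0.077. The summed insulin share had no such order, with CD63 low replicate 1 highest at 56.4% and CD63 low replicate 2 lowest at 48.7%.

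**Figure D2:**
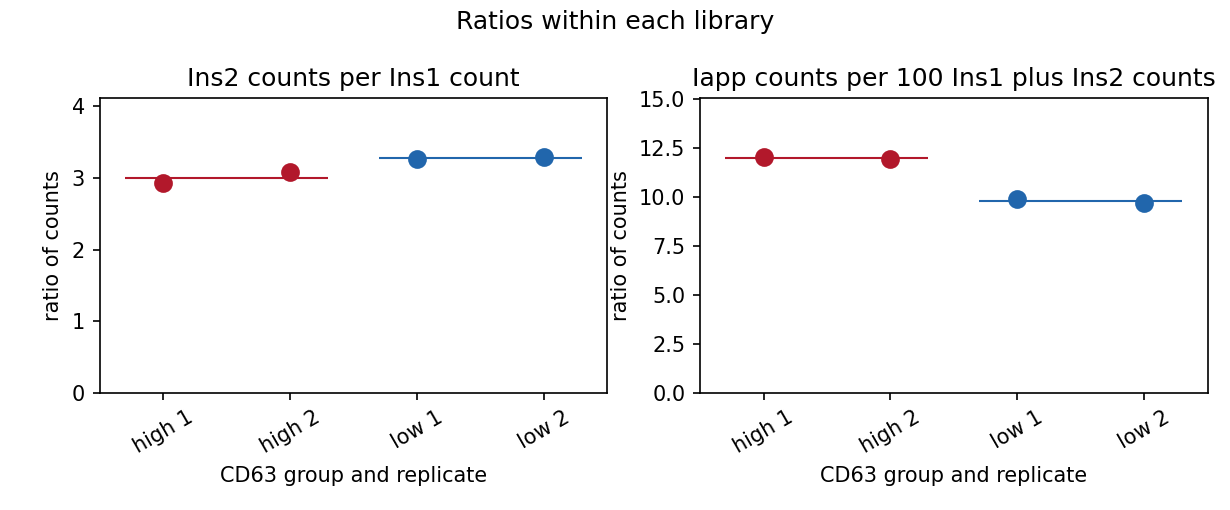
Ins2 counts per Ins1 count (left) and Iapp counts per 100 counts of Ins1 plus Ins2 (right) in each library (points), with group means (lines) on axes that start at 0. The 2 CD63 high libraries lie below the CD63 low libraries in the left panel and above them in the right panel.

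An exact permutation test of 2 against 2 libraries (two-sided) cannot go below p = 0.333. It gave 0.333 for the Iapp to insulin ratio, the Ins2 to Ins1 ratio and the Iapp share, and 1 for the insulin share (0.444, 0.444, 0.444 and 1 after Benjamini-Hochberg adjustment over these 4 measures), so none passed 0.05. Counting error was small against these differences. The Iapp share of the counts of the 3 genes was 10.7% in each CD63 high library and 9.01% and 8.82% in the CD63 low ones, with 95% Wilson bounds at most 0.0148 percentage points from each value. Such intervals cover counting error only, since PCR copies without molecular identifiers are not separate molecules. No gene ratio of this kind was tested across the genome, and a share of 46.0% of single genes with groups that do not overlap is the nearest background at hand.

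Levels of different genes can be compared only per length, and the length chosen matters here. With the merged exon lengths of the tables, Ins2 stood at 289608 ± 15755 and 306867 ± 31104 CPM per kilobase in CD63 high and CD63 low cells (SD, n = 2), Ins1 at 124358 ± 2086 and 120831 ± 12972, and Iapp at 62294 ± 2490 and 52845 ± 6316, on library size alone. The order Ins2, Ins1, Iapp held in every library with gaps beyond the spread between replicates. Per base of merged exon, the level of Ins2 was 2.27 and 2.39 times that of Ins1 (CD63 high) and 2.53 and 2.55 times (CD63 low). With the length of 1 GENCODE mRNA per gene (1062 bases for Ins1, 478 for Ins2, 839 for Iapp) the same ratios were 6.50, 6.86, 7.26 and 7.32. The length of Ins2 fell from 1312 to 478 bases, in part because the upstream exons no longer add to it. That of Ins1 went from 1016 to 1062 bases. The 2 mRNAs differ in length although their coding parts are alike (327 and 333 bases), so these ratios depend on the transcript model of each gene. The comparison between the groups is the same with either length.

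Among islet hormone transcripts, the 3 genes made up nearly everything in each library, and the remainder differed between the groups. Ins1, Ins2 and Iapp together were 98.6% and 98.3% of the counts of 8 hormone genes in CD63 high cells and 99.9% in each CD63 low library. The other 5, Gcg (glucagon, of alpha cells), Sst (somatostatin, of delta cells), Ppy and Pyy (peptides of gamma cells) and Ghrl (ghrelin), summed to 1.43% and 1.68% against 0.118% and 0.125%. Of the hormone counts, Ins2 took 65.6% and 66.3% (CD63 high) against 69.6% and 69.9% (CD63 low), and Iapp 10.6% and 10.5% against 9.00% and 8.81%. Ins1 took 22.4% and 21.5% against 21.3% and 21.2%.

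**Figure D3:**
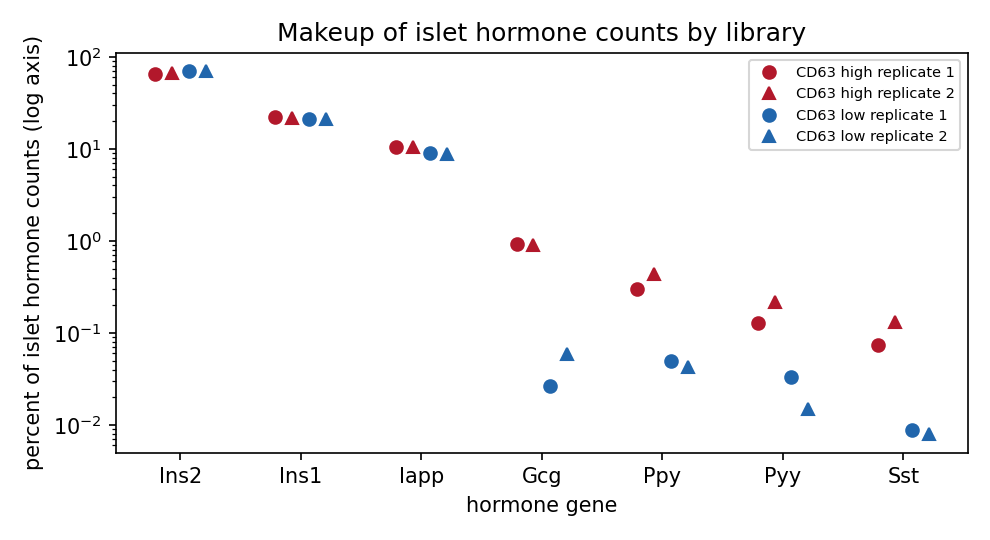
Percent of the counts of islet hormone genes taken by each of 7 hormones in each library, on a log axis (circles for replicate 1, triangles for replicate 2, red for CD63 high, blue for CD63 low; Ghrl, at 0 to 2 counts, is not drawn). Ins2, Ins1 and Iapp keep their order in all 4 libraries, while Gcg, Ppy, Pyy and Sst are higher in both CD63 high libraries.

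Markers of several other cell types were higher in CD63 high cells, where the Iapp to insulin ratio was also higher. Of the other islet hormones 4 of 4 tested were called higher in CD63 high cells, of alpha cell markers 2 of 5, delta 3 of 3, acinar 3 of 9, duct 1 of 3 and macrophage 7 of 8, of endothelial and mesenchymal markers 0 of 2 each, and none lower. Over all tested genes 2.50% were called higher and 0.287% lower. Summed alpha cell markers were at 5241 and 5433 CPM (CD63 high) against 205 and 378 CPM (CD63 low) on library size alone, delta cell markers at 465 and 842 against 67.6 and 48.7 CPM, acinar markers at 811 and 1263 against 21.1 and 334 CPM, duct markers at 2593 and 1289 against 632 and 745 CPM, and macrophage markers at 110 and 409 against 17.7 and 35.8 CPM. The 4 endothelial and 5 mesenchymal markers summed to at most 3.02 and 6.02 CPM in any library, and Cftr (duct) and Cdh5 (endothelial) had no count in any. Mouse delta cells are known to make some Iapp as well. The part of these cells in the Iapp to insulin ratio was not tested.

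The genes that make, process and answer to these hormones were counted in 10 lists of 95 genes, all present in the tables, of which 85 were tested. In CD63 high cells 3 were called higher and 4 lower (8.24%, beside 2.79% of all tested genes). The lists were chosen with earlier results of these data known, so these shares are a description and no evidence of an excess. Of the genes called higher, Igf1 passed the count filter only through the CD63 high libraries. The median log2 fold change over the 85 was 0.10, beside -0.01 over all tested genes. Groups did not overlap for 46 of the 85 (54.1%, beside 46.0%). The counts rest in part on single libraries: 6 were called higher without CD63 high replicate 2, 8 higher and 7 lower without CD63 low replicate 1, and 2 lower without CD63 high replicate 1.

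Activators of the insulin and Iapp genes were lower in part. Of 22 tested, Mafa and Mlxipl were called lower and none higher, beside 0.287% lower and 2.50% higher over all tested genes. A log2 fold change below 0 was seen in 17, with a median of -0.35, beside a median of -0.01 over all tested genes. Mafa, a basic leucine zipper factor of mature beta cells that binds the Maf response element of insulin promoters, was at 118 and 136 CPM (CD63 high) against 228 and 301 CPM (CD63 low), with a log2 fold change of -1.06 (SE 0.21, edgeR adjusted p 0.0253). Both CD63 high libraries lay well below both CD63 low ones. Mlxipl, the glucose-responsive factor ChREBP, was at 46.7 and 58.8 against 124 and 93.7 CPM (log2 fold change -1.04, edgeR adjusted p 0.0322). Pdx1, the homeodomain factor of the A boxes, was at 74.1 and 88.1 against 121 and 121 CPM and missed the threshold (log2 fold change -0.58, edgeR adjusted p 0.173). Neurod1, the E box factor, was at 178 and 189 against 218 and 182 CPM, with overlapping groups (log2 fold change -0.13, edgeR adjusted p 0.843). Both calls, of Mafa and Mlxipl, were lost when CD63 high replicate 1 was left out (edgeR adjusted p 0.0760 and 0.154) and when libraries were scaled by size alone (0.122 and 0.0861). Mafa and Pdx1 are also beta cell markers, and the markers of other cells given above were higher in the same libraries. The part of cell makeup in the levels of these activators was not tested.

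Of 3 tested repressors of the insulin gene 1, Crem, was called higher, beside 2.50% of all tested genes, and none lower (median 0.92). Crem, whose inducible short form ICER represses cyclic AMP response elements, was at 93.0 and 92.6 CPM (CD63 high) against 43.7 and 44.9 CPM (CD63 low), with a log2 fold change of 1.07 (SE 0.19, edgeR adjusted p 0.0148, and 0.104 when scaled by library size alone). Replicates of Crem differed far less than its groups. Counts per gene do not separate ICER from the other forms of Crem, so the level of the repressor form was not measured. Of 4 proteins that bind insulin mRNA none was called (median -0.17): Ptbp1, which stabilises it, was at -0.44 and Pabpc1, which binds poly(A) tails, at 0.54 (edgeR adjusted p 0.371 and 0.207).

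Entry into the ER, folding and processing showed no called gene. None of 26 tested genes of ER entry and prohormone folding passed (median 0.13). The most abundant were the chaperone Hspa5 (BiP), at 1901 and 1455 CPM (CD63 high) against 1324 and 2061 CPM (CD63 low), and the disulfide isomerase Pdia3, at 1263 and 1234 against 1261 and 1279 CPM. None of the 6 processing genes passed either (median 0.20). Pcsk1, the convertase that makes the first cut of proinsulin, was at 398 and 287 against 232 and 354 CPM (log2 fold change 0.22, edgeR adjusted p 0.758). Pcsk2, the second convertase, was at 1326 and 1270 against 1532 and 1786 CPM (-0.35, edgeR adjusted p 0.439), and Cpe, the carboxypeptidase that trims the cut ends, at 2488 and 2240 against 1968 and 2116 CPM (0.21, edgeR adjusted p 0.685).

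Granule genes moved both ways, with 1 of 9 called higher and 1 lower (2.50% and 0.287% over all tested genes) and a median of -0.08. Slc30a8, the zinc transporter that lets insulin crystallise, was at 111 and 220 CPM (CD63 high) against 470 and 377 CPM (CD63 low), with a log2 fold change of -1.36 (SE 0.30, edgeR adjusted p 0.0363). Its CD63 high replicates differed by a wide margin and both stayed below the CD63 low ones. Vgf, the precursor of several secreted peptides, was at 42.1 and 25.3 against 4.12 and 9.16 CPM (log2 fold change 2.34, SE 0.38, edgeR adjusted p 0.00972). Slc30a8 was no longer called when CD63 high replicate 1 was left out (edgeR adjusted p 0.0731) or with a robust dispersion (0.0515), and neither gene was when scaled by library size alone (0.102 and 0.118). With 1 library left out, the log2 fold change of Vgf ran from 1.88 (without CD63 low replicate 1) to 3.05 (without CD63 low replicate 2).

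Relatives of insulin and amylin were counted at far lower levels than the 3 hormone genes. Of 7 other insulin family genes 3 were tested and Igf1, insulin-like growth factor 1, was called higher, beside 2.50% of all tested genes. It had 72 and 96 counts in CD63 high replicates 1 and 2 and 0 in both CD63 low libraries. This is at least 63.8-fold higher against a floor of 3 counts over the latter. Igf1 passed the count filter only through the CD63 high libraries, so its call adds nothing to these counts. Macrophages are a known source of Igf1, and macrophage markers were higher in the same libraries, as given above. The part of macrophages in this rise was not tested. Of 4 calcitonin family genes 2 were tested and neither passed: Adm2 was at 4.08 and 4.22 CPM (CD63 high) against 1.61 and 0.719 CPM (CD63 low), and Calca at 3.32 and 2.13 against 1.02 and 0.667 CPM (edgeR adjusted p 0.105 and 0.189). Iapp was the calcitonin family member with by far the most counts in each library.

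On the receiving side 8 genes of receptors, their partners and their substrates (Irs1 and Irs2) were tested. Of these 1 was called lower, beside 0.287% of all tested genes, and none higher (median 0.49). This median includes weakly counted genes, among them Irs1 at 0.606 and 0.650 CPM (CD63 high) against 1.09 and 1.57 CPM (CD63 low). Ramp3 was at 1.18 and 1.26 against 0.231 and 0 CPM. Insrr, the insulin receptor-related receptor, which responds to alkaline pH and not to insulin, was at 32.6 and 32.9 CPM (CD63 high) against 93.7 and 127 CPM (CD63 low), with a log2 fold change of -1.75 (SE 0.22, edgeR adjusted p 0.00331, and 0.0504 when scaled by library size alone). The calcitonin receptor Calcr, which forms amylin receptors with the RAMP proteins, had 0 counts in every library, which allows up to 3 counts or 0.0857 to 0.103 CPM, counting error only. Of 2 tested proteases neither passed: Bace2, which cuts proamylin, was at 454 and 541 against 633 and 487 CPM, and Ide, the insulin-degrading enzyme, at 34.9 and 34.4 against 31.4 and 38.7 CPM (edgeR adjusted p 0.789 and 0.989).

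**Figure D4:**
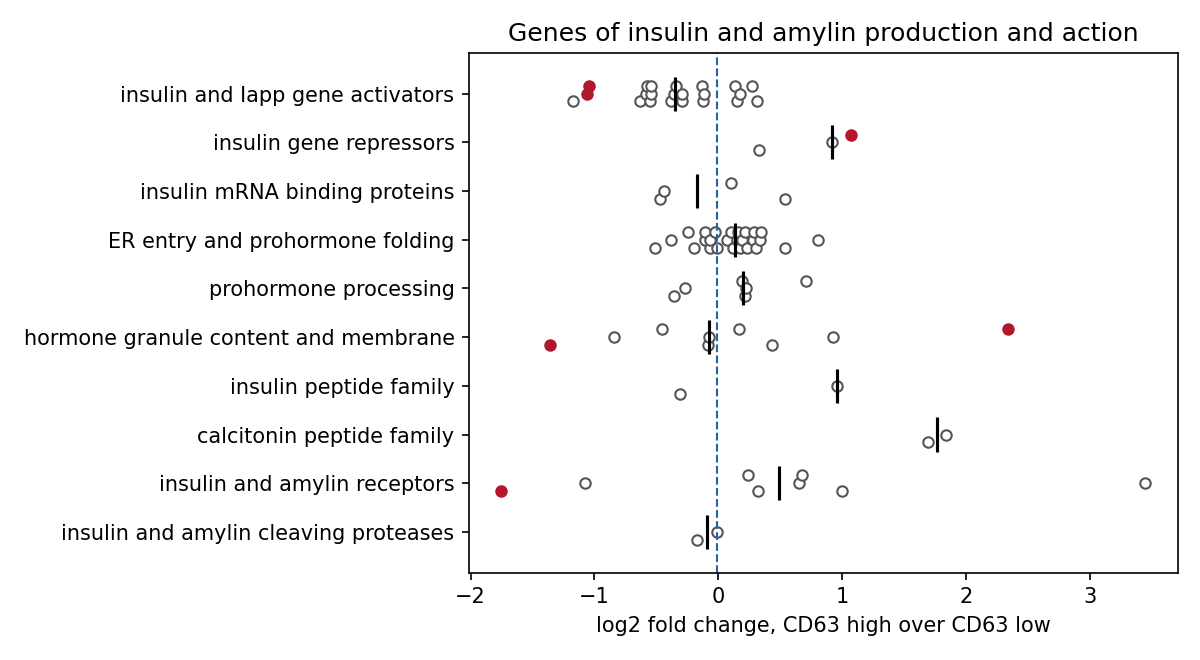
Log2 fold change, CD63 high over CD63 low, of each tested gene of 10 lists (points; filled where the edgeR adjusted p was under 0.05), with each list's median (black bar) and the median of all tested genes (dashed line). Activators lie mostly left of the dashed line and ER entry genes around it; Igf1, without counts in CD63 low cells, is counted in its list's median but not drawn.

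The genes whose levels followed each hormone gene most closely were sought among 1479 others with a mean log2 CPM of at least 6, by the root mean square distance of centred log2 CPM over the 4 libraries. For Ins1 the 5 nearest were Txndc17, Atxn7l3b, Hist1h1c, Nop10 and Fam183b (distances 0.021 to 0.041). For Ins2 they were Uqcc2, Hist1h1c, Mrln, Glrx5 and Golt1b (0.035 to 0.056), and for Iapp Gstp1, Rpl13, Cox8a, Atp5j2 and Romo1 (0.018 to 0.024). Ins1 was the 12th nearest to Ins2, at a distance of 0.069, and Ins2 the 27th nearest to Ins1, while Iapp was the 86th nearest to Ins1 and the 281st nearest to Ins2. With 4 libraries many genes lie this close, and the distances are a description.

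Most of these neighbours were shorter than the median of all genes compared, 3384.5 bases of exon, with Atxn7l3b (3572 bases) and Glrx5 (3682 bases) as exceptions. The median exonic length was 1324 bases for the 5 nearest to Ins1 (range 567 to 3572), 1560 for Ins2 (837 to 3682) and 757 for Iapp (545 to 3306). Genes of at most 1000 bases, with the 3 hormone genes and mitochondrial genes left out, took 3.92% and 4.93% of the counts outside the 3 genes (CD63 high) against 3.07% and 2.26% (CD63 low), and genes over 5000 bases 29.1% and 26.9% against 30.6% and 33.5%. Groups did not overlap in either share. Genes of other cell types were not left out, and their part in these shares was not tested. CD63 low replicate 2, the library with the lowest TMM-scaled levels of all 3 genes, held the smallest share of short genes. CD63 low replicate 1, with the highest Ins1 and Ins2 levels, held a smaller share of them than either CD63 high library. The part of transcript length in the levels of the 3 genes was not tested.

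Since the 3 genes take at least 53.4% of all counts in each library, the scaling of libraries can move their levels. Over 10 alternative scalings, filters, tools and designs the log2 fold change of Ins2 ranged from -0.14 to -0.03, that of Ins1 from -0.014 to 0.092 and that of Iapp from 0.18 to 0.29. Leaving out 1 library moved them more. Without CD63 low replicate 1 they were 0.20, 0.33 and 0.54, and without CD63 low replicate 2 they were -0.26, -0.15 and 0.039. Ins1 and Ins2 thus changed sign with the libraries included, Iapp stayed above 0, and no setting brought any of the 3 below an adjusted p of 0.05 (lowest 0.505, 0.739 and 0.101). The log2 Iapp to insulin ratio kept a difference of 0.27 to 0.31 without any 1 library, and the log2 Ins2 to Ins1 ratio one of -0.16 to -0.088.

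**Figure D5:**
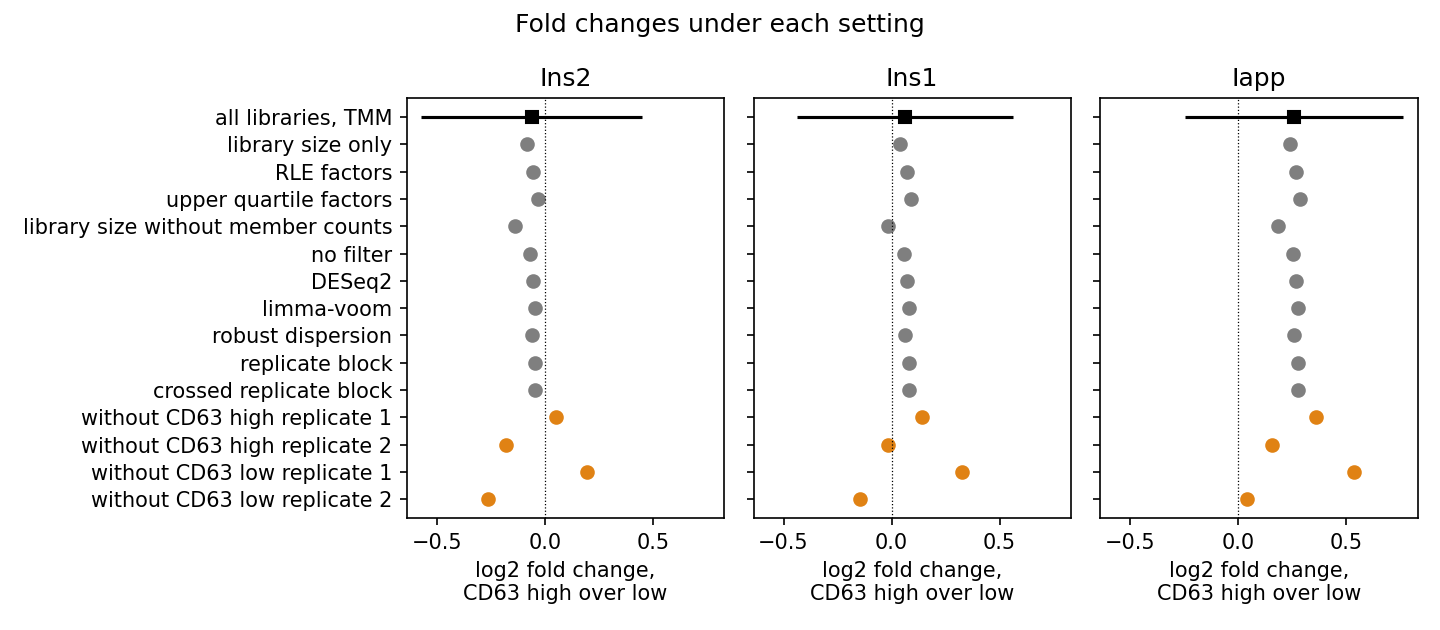
Log2 fold change, CD63 high over CD63 low, of Ins2, Ins1 and Iapp under each setting (black square with its 95% interval for all libraries with TMM scaling, grey for other scalings, tools and designs, orange with 1 library left out). Ins2 and Ins1 points lie on both sides of 0, and the Iapp points lie between 0.039 and 0.54.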

How the data were processed

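Counts per gene name had been deposited for 4 polyA RNA-seq libraries, made with a SMARTer v4 and Nextera XT low-input protocol per the labels. Per the file headers, the authors counted paired-end fragments with featureCounts 1.6.2 by gene name against the Cell Ranger mm10 3.0.0 annotation, with no option for strand or for reads with several alignments. STAR 2.6.0c, FastQC and Cell Ranger are named in the submitters' processing notes without their order. The deposited length column, in bases, is the merged exon length.

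Genes were kept with filterByExpr (minimum count 10, minimum total 15), TMM-scaled and tested by quasi-likelihood (glmQLFTest of edgeR 4.0.16, R 4.3.3), with group as the only term and Benjamini-Hochberg adjustment over 13241 genes, called under 0.05. Each SE was the absolute log2 fold change divided by the root of the F statistic. Alternatives were other scalings, no filter, DESeq2 1.42.0, limma-voom (limma 3.58.1), a robust dispersion, a replicate block and leaving out each library. Ratios used raw counts and an exact permutation test in scipy 1.17.1. A chi-square of counts per degree of freedom of 39.8 (CD63 high) and 78.6 (CD63 low) showed that replicates differed beyond counting error. It cannot tell separate animals or sorts from repeat libraries made from the same cells. Named pathway genes were the called members of each list, or its 2 most abundant, plus Pdx1, Mafa, Neurod1, Pcsk1, Pcsk2 and Cpe. The members and lists were chosen with earlier results of these data known. Low-input amplification can shift the balance of short and long transcripts.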

Additional observations from a re-analysis of the deposited data

How the results depend on the processing

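Depth limits little here, with at least 1649404 counts per library for each of the 3 genes, and 2 libraries per group limit every test. The Ins1 log2 fold change of 0.06 was -0.014 with the counts of the 3 genes left out of the library size; without 1 library it ranged from -0.15 to 0.33, Ins2 from -0.26 to 0.20, Pcsk1 from -0.052 to 0.58, Neurod1 from -0.24 to 0.0061 and the difference in insulin share from -5.72 to 1.91 percentage points. The number of genes called, 369, was 67 with library size only, 940 without the filter and 686 with DESeq2, and 450 to 769 without 1 library. Pathway genes called higher, 3, were 1 with library size only, 8 without the filter and 8 with DESeq2, and 3 to 8 without 1 library; those called lower, 4, were 0 with library size only and 2 to 7 without 1 library. The mean Ins2 to Ins1 level per base, 2.43 with merged exons, was 6.98 with 1 mRNA per gene, a length chosen after seeing the data. The causes of these changes were not tested beyond what each setting leaves out.

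Nothing shows that the replicate numbers of the titles pair the samples: deviations of same-numbered libraries correlated at -0.101, and the deposited files number the CD63 low libraries differently from the titles. With the replicate block 616 genes were called, 5 pathway genes higher; the log2 fold changes were -0.045, 0.082 and 0.28 for Ins2, Ins1 and Iapp, none called, and the ratio and share differences were unchanged by construction. Since that correlation was negative, the crossed pairing was added after seeing the data. Its correlation of 0.101 is the same value with the sign turned, by construction with 2 libraries per group, and is no separate evidence for this pairing. With this crossed replicate block 942 genes were called, 10 pathway genes higher and 9 lower. Pdx1 was among the latter (edgeR adjusted p 0.0351, the only setting run that called it).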
